A study of Mus musculus with 19 samples.

Results

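The genes described here are the nuclear-encoded subunits of oxidative phosphorylation: the Nduf, Sdh, Uqcr, Cox and Atp5 genes, found by the names that the scanner files give to the probes of the array. These names matched 129 probes of 84 genes. A probe was read where its signal was well above background on 4 or more of the 19 arrays, which 121 probes of 83 genes met, out of 31848 probes and 20670 genes in the whole data set. The remaining 8 probes belong to Uqcrfs1, Ndufv2, Ndufa4l2, Uqcrb, Ndufs5, Ndufa7, Atp5j and Cox8c. Of these genes Cox8c alone was left without a value, and its probe was above background on 1 array. Of the 83 genes, 35 were counted with complex I, 4 with complex II, 8 with complex III, 18 with complex IV and 15 with complex V. Among the 18 is Cox7a2l, an assembly factor of supercomplexes. The remaining 3 of the 83 matched by name only and were counted with no complex. They are Atp5s (now Dmac2l), Atp5sl (now Dmac2) and the pseudogene Atp5c1-ps, and they stay in the counts below. Cox5b, another nuclear-encoded subunit of complex IV, was not found under these names and was not analysed here.

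RNA came from luminal cells (LCs) of the mammary gland, sorted as CD24+CD29lo cells after CD31+ and CD45+ cells were gated out, and each array held 1 mouse. C451A-ERα mice carry, in the germline and so in every cell, a mutation of the site where the estrogen receptor ERα is palmitoylated. The arrays read transcript amounts and not this base, so they give no check of the genotype. All mice were C57Bl/6N females of 8 weeks, ovariectomized, with a pellet set 10 days later and worn for 3 weeks by the methods. The pellet held 1.5 mg of progesterone with 0.01 mg of estradiol (E2+Pg), or 0.01 mg of estradiol alone (E2), each made to last 60 days. C451A-ERα mice with E2+Pg were L56, L18, L61, L53 and L63, and wild-type mice with E2+Pg were L57, L62, L44, L47 and L21. C451A-ERα mice with E2 were L4, L58, L27, L76 and L51, and wild-type mice with E2 were L67, L50, L72 and L52. The mice are named by the numbers on their labels.

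Oxidative phosphorylation takes place in the inner mitochondrial membrane. Complex I takes electrons from NADH and complex II from succinate, complex III passes them to cytochrome c, and complex IV hands them to oxygen. Complexes I, III and IV pump protons as they do so, and complex V, the ATP synthase, lets the protons back and makes ATP. Most subunits come from nuclear genes spread over many chromosomes, while a small core is encoded in the mitochondrial genome. Some complex IV subunits have a second isoform that heart and skeletal muscle use.

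The arrays were of like brightness. The raw median signal had a 75th percentile of 248.5 to 490 over a background of 21 to 29. From 26479 to 31266 probes exceeded background well, and 0 spots were saturated. Precision is set by the 4 or 5 mice in a group, and p-values refer to the spread between these mice. Luminal keratins were bright in every mouse. Krt8 had a log2 signal of 16.40 to 17.80 and Krt18 of 18.02 to 18.23 in the 19 mice. Summed over their lists, markers of luminal cells in general had a log2 level of 18.90 to 19.65. Basal markers had 14.01 to 15.13 and fibroblast markers 12.74 to 14.65. These levels do not give the share of other cells in the sort. Some libraries stood apart. When limma weighted the arrays by how well they fitted, L4, L27 and L18 had the lowest weights (0.248, 0.291 and 0.309). Krt8 was lowest in L4 (16.40) and L18 (16.68). L44 and L47 had the lowest signals of the mitochondrial genome. Results that moved when L4, L27 and L18, or L44 and L47, were left out are given with and without them. Both choices were made after the data were seen. In RNA of sorted cells, fewer cells of a type and less RNA per cell cannot be told apart.

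The subunit genes were among the brightest on the array. Their median log2 signal was 13.46, against 8.28 over all genes tested, and 59 of the 83 lay above the 90th percentile of all genes. Signals of different probes are not on a common scale, so the order of genes by signal need not be that of their transcript numbers. In complex V the signals ran between 13.46 for Atp5d and 15.78 for Atp5b, the catalytic beta subunit. Complex I spanned 10.65 (Ndufa8) to 15.28 (Ndufa13), complex II 11.23 (Sdhc) to 13.42 (Sdhb), and complex III 12.26 (Uqcrfs1) to 15.08 (Uqcrh). Complex IV was the widest, with Ndufa4l2 at 5.61 and Cox6a1 at 16.48. For 79 of the 83 genes the probe was well above background on all 19 arrays, and the exceptions were Cox6a2 (16 arrays), Cox7b2 (14), Cox8b (14) and Ndufa4l2 (13).

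The genes also varied little between mice. The median standard deviation over the 19 arrays was 0.220 on the log2 scale, against 0.332 over all genes. Among genes with a mean log2 signal of 12 or more it was 0.211 for 63 subunit genes, against 0.262 for the 2731 genes of that brightness. The steadiest subunits were Uqcrb of complex III (SD 0.13), Atp5l of complex V (0.13), Ndufb2 of complex I (0.15), Cox6c of complex IV (0.16) and Sdha, the flavoprotein of complex II (0.17). The most variable in their complexes were Cox6a2 (1.87), Ndufv3 (0.37), Sdhd (0.31), Uqcr10 (0.28) and Atp5c1 (0.26).

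Part of the variation was shared by the genes of a mouse. For each mouse the mean over the 83 genes of the deviation from each gene's own mean was taken, on the log2 scale. In C451A-ERα mice with E2+Pg it was -0.23 in L56, 0.07 in L18, -0.25 in L61, -0.06 in L53 and -0.36 in L63, against -0.08 in L57, -0.06 in L62, 0.04 in L44, 0.11 in L47 and 0.25 in L21, the wild-type mice with E2+Pg. In C451A-ERα mice with E2 it was 0.31 in L4, -0.10 in L58, 0.29 in L27, 0.09 in L76 and -0.04 in L51, against -0.09 in L67, -0.07 in L50, 0.11 in L72 and 0.06 in L52, the wild-type mice with E2. The lowest 3 mice of the 19 were C451A-ERα with E2+Pg, and the highest 2 were L4 and L27. All groups overlapped. L18 was the only C451A-ERα mouse with E2+Pg above 0.

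**Figure D1:**
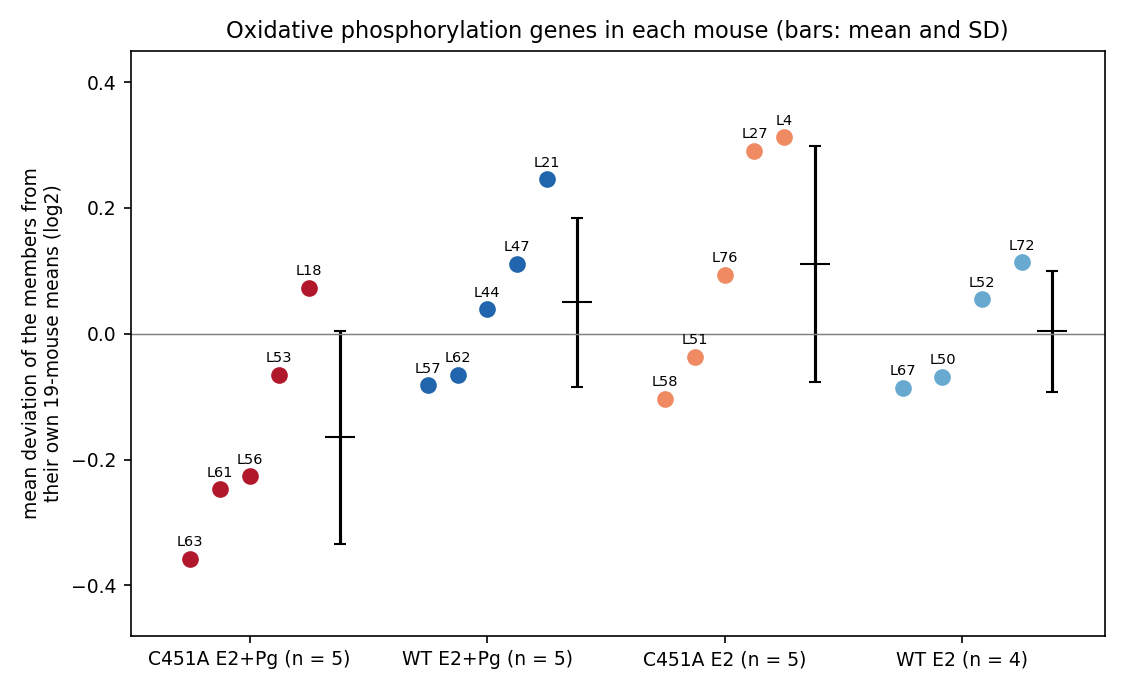
Mean deviation of the 83 oxidative phosphorylation genes per mouse (log2, vertical axis), 1 point per mouse sorted by value, in the 4 groups along the horizontal axis, with bars for the mean and SD. The C451A-ERα mice with E2+Pg average -0.16 and hold the 3 lowest values, while L4 and L27 stand at the top of the C451A-ERα mice with E2.

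Group means of this deviation were -0.16 ± 0.17 in C451A-ERα with E2+Pg (SD, n = 5) and 0.05 ± 0.13 in wild-type with E2+Pg (n = 5). They were 0.11 ± 0.19 in C451A-ERα with E2 (n = 5) and 0.00 ± 0.10 in wild-type with E2 (n = 4). Within some mice the genes moved as a block. In L63, 3 of the 83 genes were above their own mean, in L56 5 and in L61 8. In L4 and in L27 it was 78 of 83. Over all genes tested the share above the mean was 42.4 to 58.4% per mouse, against 3.6 to 94.0% of the subunit genes. Other mice had no such block, as L51 with 49.4% and L62 with 42.2% of the subunit genes above their mean.

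**Figure D2:**
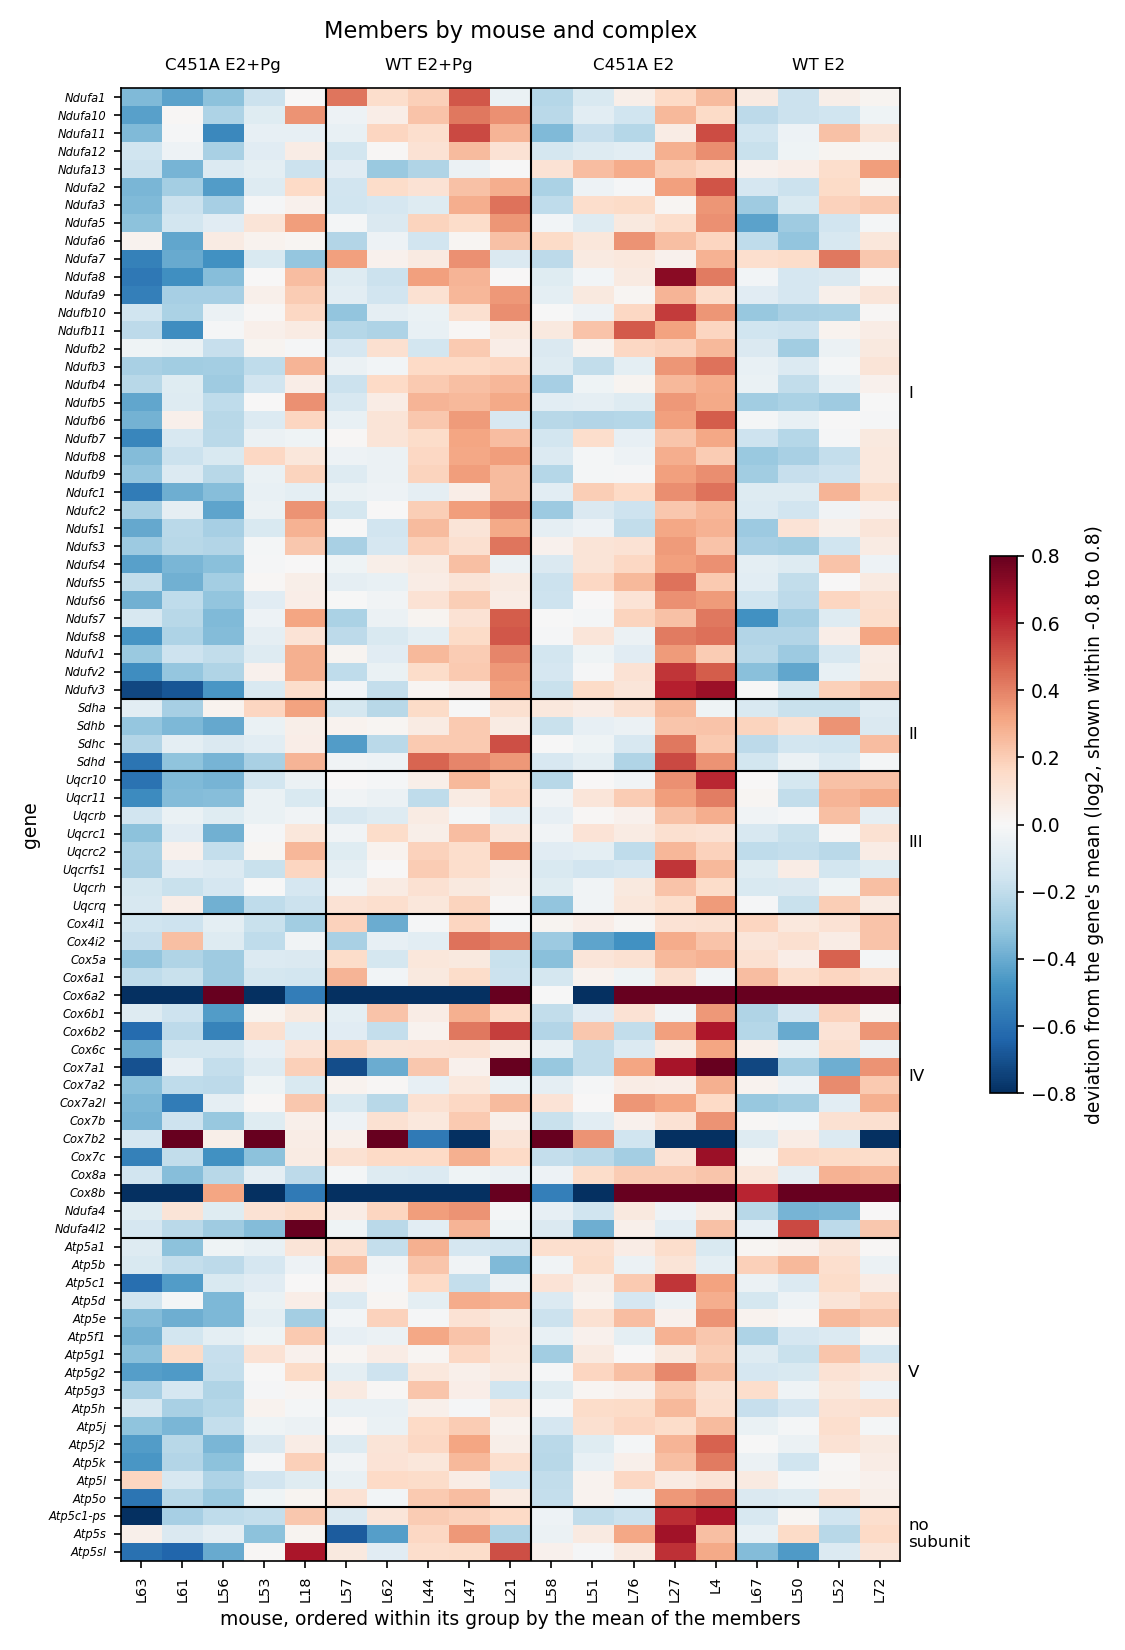
Deviation of the genes (rows, by complex) from their own means in each of the 19 mice (columns, by group), as log2 colour. Columns such as L63 and L4 keep 1 colour over nearly all rows of complexes I to V, and Cox6a2 and Cox8b in complex IV follow a pattern of their own.

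The arrays lay on 5 slides, each with a mouse of every group except that 1 slide had no wild-type mouse with E2. The difference in the 83-gene mean between mice of the same slide, C451A-ERα minus wild-type under E2+Pg, was -0.14 (L56 and L57), 0.14 (L18 and L62), -0.29 (L61 and L44), -0.18 (L53 and L47) and -0.60 (L63 and L21). It was negative on the slides without L18. Under E2 the same difference was 0.40 (L4 and L67), -0.04 (L58 and L50), -0.02 (L76 and L72) and -0.09 (L51 and L52), so it was above 0 only for L4. For E2+Pg minus E2 in C451A-ERα mice it was -0.54 (L56 and L4), 0.18 (L18 and L58), -0.54 (L61 and L27), -0.16 (L53 and L76) and -0.32 (L63 and L51). In wild-type mice the 4 differences were 0.00, 0.00, 0.00 and 0.19, the last for L21 and L52. The median differences over the 83 genes on these slides were 0.03, 0.11, 0.10 and 0.12. On all 4 slides 24 of the 83 were higher and 2 lower, against 16.3% and 8.39% of all genes. The means take in Cox6a2 and Cox8b, whose spread between mice was far above that of the other genes. In the order of slides above, the medians for genotype under E2+Pg were -0.20, 0.08, -0.30, -0.25 and -0.48. For E2+Pg minus E2 in C451A-ERα mice the medians were -0.53, 0.21, -0.50, -0.09 and -0.33.

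Under E2+Pg, 79 of the 83 genes had a lower mean in C451A-ERα LCs than in those of wild-type mice, with a median log2 difference of -0.23, against -0.02 over all genes tested, of which 53.1% were lower. Of the 83, 0 were called. A call is a Benjamini-Hochberg adjusted p under 0.05 in limma, over all 20670 genes, together with a fold change above 1.5. At this rule 1 gene of the array was called in this comparison (0.00484%). At an unadjusted p under 0.05, 25 subunit genes were lower and 0 higher, against 10.5% lower and 7.9% higher over all genes. The smallest adjusted p of a member was 0.109 in limma. All 35 genes of complex I, 8 of complex III and 15 of complex V were lower, as were 16 of 18 in complex IV and 3 of 4 in complex II. The medians were -0.25 (I), -0.22 (II), -0.21 (III), -0.20 (IV) and -0.19 (V). The 4 higher genes were Cox7b2 (0.70), Atp5s (0.08), Sdha (0.05) and Ndufa4l2 (0.01).

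Ndufa7, an accessory subunit of complex I, had the smallest p. Its log2 signal was 14.17, 14.34, 14.25, 14.53 and 14.11 in C451A-ERα animals L56, L18, L61, L53 and L63, against 14.98, 14.68, 14.73, 15.02 and 14.54 in wild-type animals L57, L62, L44, L47 and L21. The groups did not overlap, though L53 and L21 lay next to each other. The means were 14.28 ± 0.17 and 14.79 ± 0.20 (SD, n = 5 each), a log2 difference of -0.51 with an SE of 0.12 (adjusted p = 0.109, limma), and the exact two-sided permutation test gave p = 0.00794, the smallest that 5 against 5 mice allow. Its probe lies at chr17:33975141-33975200 (mm9). On each of the 5 slides the C451A-ERα mouse was the lower one.

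Ndufa1, an X-linked accessory subunit of the membrane arm of complex I, had log2 signals of 12.89, 13.23, 12.79, 13.05 and 12.87 in the C451A-ERα mice, against 13.65, 13.37, 13.41, 13.72 and 13.17 in the wild-type mice, in the same order of mice. Only L18 reached into the wild-type range, above L21. The difference was -0.50 (adjusted p = 0.114, limma; exact permutation p = 0.0159, two-sided). Ndufb7, an accessory subunit of complex I, had 13.52, 13.70, 13.61, 13.69 and 13.22 in C451A-ERα mice, against 13.75, 13.84, 13.89, 14.05 and 13.98 in wild-type mice, with no overlap (-0.35, adjusted p = 0.180 in limma).

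Outside complex I, Atp5e, the epsilon subunit in the central stalk of the ATP synthase, had 14.38, 14.47, 14.35, 14.66 and 14.39 in C451A-ERα mice, against 14.72, 14.93, 14.73, 14.86 and 14.82 in wild-type mice. The groups did not overlap, at a difference of -0.36 (adjusted p = 0.148, limma; exact permutation p = 0.00794). Cox7c, a small subunit of complex IV, had 12.36, 12.91, 12.65, 12.52 and 12.31 in C451A-ERα mice, against 12.97, 13.00, 13.01, 13.13 and 13.00 in wild-type mice. The wild-type values were close to each other and above those of C451A-ERα, of which L18 was the highest (-0.47, adjusted p = 0.178 in limma; exact permutation p = 0.00794). Uqcr10 of complex III was another gene without overlap, with a difference of -0.39 (adjusted p = 0.212, limma). Groups did not overlap in the lower direction for 5 of the 83 genes, against 1.77% of all genes tested, and in the higher direction for 0, against 0.837%.

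Of the 18 core or catalytic subunits measured, 17 were lower in C451A-ERα LCs under E2+Pg and Sdha was higher (0.05). In the NADH module of complex I, Ndufv1 and Ndufs1 differed by -0.26 and -0.25, and the iron-sulfur subunits Ndufs8 and Ndufs7 by -0.26 and -0.15. Sdhd, a membrane anchor of complex II, differed by -0.48, in contrast to Sdha of the same complex. The core proteins of complex III, Uqcrc1 and Uqcrc2, differed by -0.25 and -0.14, Cox4i1 and Cox5a of complex IV by -0.16 and -0.21, and the F1 subunits Atp5a1, Atp5b and Atp5c1 by -0.07, -0.15 and -0.24.

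The call in this comparison turned on few mice. Without L4, L27 and L18 the median was -0.30 and 81 of the 83 genes were lower. At an adjusted p under 0.05 in limma without regard to the fold, 32 of the 83 passed (38.6%), against 22.6% of all genes. With the fold above 1.5 as well, 2 were called (2.41%), against 14.5% of all genes. Without the wild-type mice L44 and L47 the median was -0.18 and 77 genes were lower, with 0 called, and 7 were lower at an unadjusted p under 0.05, against 4.24% of all genes.

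Under E2 the genotype difference had the other direction for most genes. In C451A-ERα LCs 66 of the 83 genes had a higher mean than in wild-type LCs and 17 a lower one, with a median log2 difference of 0.12, against 0.02 over all genes, of which 46.3% were lower. Limma called 0 subunit genes, and 6 genes of the array (0.029%). At an unadjusted p under 0.05, 6 were higher, against 7.02% of all genes, and 0 lower, against 6.66%, so that the share among the subunit genes was close to the background. The median was 0.17 in complex I, where 33 of 35 genes were higher, 0.16 in complex II, 0.09 in complex III, 0.07 in complex V and -0.04 in complex IV, where 11 of 18 genes were lower.

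Ndufb10, an accessory subunit of complex I, had the smallest p. It had 14.08, 13.73, 14.29, 13.89 and 13.69 in C451A-ERα animals L4, L58, L27, L76 and L51, against 13.43, 13.47, 13.74 and 13.48 in wild-type animals L67, L50, L72 and L52. The groups overlapped only through L72, and L4 and L27 were the highest mice. The difference was 0.41 with an SE of 0.15 (adjusted p = 0.223, limma; exact permutation p = 0.0476). Ndufb11, an X-linked accessory subunit, had 14.22, 14.13, 14.37, 14.54 and 14.28 in C451A-ERα mice, against 13.89, 13.89, 14.11 and 14.08 in wild-type mice. These groups did not overlap (0.32, adjusted p = 0.277 in limma; exact permutation p = 0.0159, the smallest that 5 against 4 mice allow). The same held for Sdha, at 11.87, 11.99, 12.16, 12.04 and 11.96 in C451A-ERα mice, against 11.78, 11.73, 11.81 and 11.73 in wild-type mice. Those were the 2 genes without overlap in the higher direction, against 2.1% of all genes, and 0 were without overlap in the lower one, against 1.43%.

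The further genes with an unadjusted p under 0.05 were all of complex I: Ndufv2 (0.39) and Ndufs3 (0.32), which are core subunits, and Ndufa6 (0.34) and Ndufa5 (0.31), which are accessory, with adjusted p-values of 0.229 to 0.349 in limma. Of the 18 core subunits 14 were higher, and the lowest was Atp5b at -0.12. This direction rested on L4 and L27. Without L4, L27 and L18 the median was -0.01 and 46 of the 83 genes were lower in C451A-ERα LCs. On the slides without L4 the median difference over the genes was -0.03, -0.04 and -0.03, against 0.39 on the slide of L4, and L27 had no wild-type partner with E2 on its slide.

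With E2+Pg, 79 of the 83 genes had a lower mean than with E2 in C451A-ERα mice, at a median log2 difference of -0.25, against 0.00 over all genes, of which 49.6% were lower. Limma called 0 of them, and called 513 genes of the array (2.48%). At an adjusted p under 0.05 without regard to the fold, 6 subunit genes were lower, against 1.71% of all genes. At an unadjusted p under 0.05, 29 were lower, against 9.85%, and 0 higher, against 8.6%. This comparison shares the C451A-ERα mice with E2+Pg with the genotype comparison above, so the resemblance of the 2 sets of differences is not independent. All genes of complexes I, II, III and V were lower, with medians of -0.26, -0.22, -0.20 and -0.25. In complex IV 14 of 18 were lower (median -0.24), and the exceptions were Cox7b2 (0.59), Cox4i2 (0.08), Ndufa4 (0.06) and Ndufa4l2 (0.05).

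The 6 genes that passed this adjusted p were Ndufa13, Ndufc1, Atp5c1, Uqcr11, Atp5e and Cox8a, with folds of 1.27 to 1.42. With the slide as a block 1 of the 83 genes passed, and 0 did with scaling to the 75th percentile, with the scanner's processed signal or with only the groups compared in the fit. Ndufa13, an accessory subunit of complex I also known as GRIM-19, had 15.18, 15.12, 14.91, 15.20 and 15.11 in C451A-ERα mice with E2+Pg (L56, L18, L61, L53, L63), against 15.45, 15.40, 15.48, 15.58 and 15.53 in those with E2 (L4, L58, L27, L76, L51). The groups did not overlap. The means were 15.10 ± 0.11 and 15.49 ± 0.07 (SD, n = 5 each), a log2 difference of -0.38 with an SE of 0.09 (adjusted p = 0.0350, limma; exact permutation p = 0.00794). This value rests on the brightest of 2 probes, at chr8:72418102-72418161 (mm9). The dimmer probe, at a log2 signal of 6.29, differed by 0.40, and the mean of both by 0.01 (adjusted p = 0.965, limma).

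Atp5c1, the gamma subunit that turns inside the ATP synthase, had 14.62, 14.74, 14.30, 14.65 and 14.14 with E2+Pg, against 15.06, 14.85, 15.31, 14.95 and 14.79 with E2, in C451A-ERα mice in the same order. The groups did not overlap, and L63 was the lowest and L27 the highest mouse (-0.50, adjusted p = 0.0424 in limma; exact permutation p = 0.00794). Its pseudogene Atp5c1-ps differed by -0.42. Atp5e, of the same stalk, had 14.38, 14.47, 14.35, 14.66 and 14.39 with E2+Pg, against 15.10, 14.57, 14.77, 14.99 and 14.86 with E2. L53 and L58 crossed over (-0.41, adjusted p = 0.0465 in limma).

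Ndufc1, a small accessory subunit of complex I, had 13.21, 13.47, 13.16, 13.49 and 12.99 with E2+Pg, against 13.98, 13.47, 13.92, 13.71 and 13.74 with E2. The groups met at L53 and L58 (-0.50, adjusted p = 0.0412 in limma; exact permutation p = 0.0238). Uqcr11, a small subunit of complex III, had 13.86, 14.08, 13.85, 14.15 and 13.70 with E2+Pg, against 14.61, 14.17, 14.53, 14.41 and 14.30 with E2, with no overlap (-0.48, adjusted p = 0.0461 in limma). Cox8a, the form of the smallest complex IV subunit that most tissues use, had 15.37, 15.38, 15.25, 15.52 and 15.44 with E2+Pg, against 15.82, 15.56, 15.80, 15.80 and 15.74 with E2. The groups did not overlap, although L58 was low among the mice with E2 (-0.35, adjusted p = 0.0476 in limma). In the lower direction 8 of the 83 genes had no overlap, against 2.61% of all genes, the further ones being Cox4i1, Cox6a1, Ndufa6 and Ndufb11. In the higher direction it was 0, against 2.5%.

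The sequences just upstream of these 6 genes are shown because they are the genes that passed the adjusted p, and because NRF1, ETS factors such as GABPA, YY1 and estrogen-related receptors are known to bind promoters of this pathway. Each holds the 120 bases before the RefSeq start (GRCm38.p6, minus strand for all 6, 5′ to 3′), and capitals mark a match to the ETS letters CCGGAAG on either strand. The positions are chr8:69902021-69902140 (Ndufa13), chr3:51408956-51409075 (Ndufc1), chr2:10080511-10080630 (Atp5c1), chr10:80406822-80406941 (Uqcr11), chr2:174464102-174464221 (Atp5e) and chr19:7217617-7217736 (Cox8a).
Ndufa13: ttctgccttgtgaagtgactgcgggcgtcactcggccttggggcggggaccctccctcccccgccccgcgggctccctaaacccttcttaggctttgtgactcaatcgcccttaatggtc
Ndufc1: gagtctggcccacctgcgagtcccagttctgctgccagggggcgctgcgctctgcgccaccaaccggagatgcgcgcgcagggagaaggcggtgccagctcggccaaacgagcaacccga
Atp5c1: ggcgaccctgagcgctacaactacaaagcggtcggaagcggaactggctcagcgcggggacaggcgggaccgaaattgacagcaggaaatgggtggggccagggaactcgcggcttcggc
Uqcr11: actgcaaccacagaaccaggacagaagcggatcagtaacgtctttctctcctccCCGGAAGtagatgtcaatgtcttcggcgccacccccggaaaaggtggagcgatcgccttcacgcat
Atp5e: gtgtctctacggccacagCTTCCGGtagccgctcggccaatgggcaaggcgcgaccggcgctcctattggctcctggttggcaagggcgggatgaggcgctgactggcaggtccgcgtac
Cox8a: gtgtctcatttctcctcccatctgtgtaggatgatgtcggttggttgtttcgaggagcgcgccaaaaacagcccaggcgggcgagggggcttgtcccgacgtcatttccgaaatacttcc

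Of these stretches, those of Uqcr11 and Atp5e hold 1 ETS match each, and the other 4 hold no match to any of the letters searched. Over the wider window of 250 bases before to 50 after the start, 68 of the 83 genes had an entry in the RefSeq promoter table. In this window Cox8a held 2 ETS matches, Ndufc1 held 1 YY1 match and Uqcr11 also held 1 NRF1 match. Ndufa13 and Atp5c1 held 0 there as well. The NRF1 letters GCGCANGCG were in 19 of the 68 (27.9%), against 6.47% of 27025 promoters of the same length. The ETS letters CCGGAAG were in 15 (22.1%), against 9.12%, and the YY1 letters AAGATGGCG in 7 (10.3%), against 1.49%. The letters TCAAGGTCA of estrogen-related receptors were in 2 (2.94%), against 0.407%. At least 1 of these was in 34 of the 68 promoters, against 15.7% of all. Both strands were searched, and a match is a string of letters and not evidence of binding.

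Among the core subunits 18 of 18 were lower with E2+Pg in C451A-ERα LCs, between -0.50 for Atp5c1 and -0.04 for Uqcrc2. The values were -0.39 for Ndufs8, -0.35 for Ndufv2, -0.34 for Sdhd, -0.30 for Cox5a and -0.24 for Cox4i1, and near 0 for Sdha (-0.06). Ndufv3, an accessory subunit of the NADH module, had the largest difference in complex I (-0.65, adjusted p = 0.0646 in limma). It had 13.04, 13.65, 12.82, 13.38 and 12.78 with E2+Pg, against 14.19, 13.33, 14.13, 13.60 and 13.66 with E2, and the groups overlapped through L18 and L58. The 6 passing genes depended on the mice in the fit. At the same adjusted p, 0 passed without L4, without L27, without L61, without L63 or without L76, 1 or 2 passed without L56, L51, L57, L62, L44, L47, L67 or L52, 10 without L18 and 12 without L58, and 0 without L4, L27 and L18 together, where the median was -0.19 and 76 genes were lower. It was also 0 without L44 and L47, which are not in the groups compared but enter the estimate of the spread.

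Sorted LCs are a mixture, and markers of their kinds were read in the same comparison. Of 7 markers of hormone-sensing luminal cells, 7 were lower with E2+Pg in C451A-ERα LCs, at a median of -1.15. Of these, 4 were called (Foxa1, Ly6a, Pgr and Prom1), against 2.48% of all genes. The summed log2 level of the 7 was 14.55 to 16.27 with E2+Pg, against 16.40 to 17.17 with E2. In wild-type LCs 7 of 7 were lower as well, at a median of -0.73 and with 0 called, and the summed level was 14.73 to 15.76 with E2+Pg, against 15.75 to 17.01 with E2. The 4 calls became 1 without L4, L27 and L18 and 3 without L44 and L47. Of 6 luminal progenitor markers, 5 were higher with E2+Pg in C451A-ERα LCs, at a median of 0.47, with 0 called by limma and 2 higher and 1 lower at an unadjusted p under 0.05. Their mean deviation was 0.23 ± 0.09 with E2+Pg, against -0.21 ± 0.38 with E2 (SD, n = 5 each), and the summed log2 level was 16.59 to 17.07 with E2+Pg, against 16.33 to 17.24 with E2. In wild-type LCs 4 of the 6 were higher (median 0.06), and Csn3, a milk casein, was called lower. Of 8 markers of luminal cells in general, 6 were higher with E2+Pg in C451A-ERα LCs (median 0.09) with 0 called and 1 lower at an unadjusted p under 0.05. In wild-type LCs 6 of the 8 were lower (median -0.45), of which Cd24a, the antigen of the sort, was called. Neither Csn3 nor Cd24a was called without L44 and L47. The summed log2 level of the 8 general luminal markers in wild-type mice was 19.10 to 19.44 with E2+Pg, against 19.49 to 19.65 with E2. The part of these markers in the results was not tested.

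In wild-type LCs most subunit genes differed little with progesterone. With E2+Pg, 61 of the 83 genes had a higher mean than with E2 in wild-type mice and 22 a lower one, at a median of 0.10, against 0.04 over all genes, of which 44.9% were lower. Limma called 0 subunit genes, and 280 genes of the array (1.35%). At an unadjusted p under 0.05, 6 were higher, against 9.56% of all genes, and 1 lower, against 6.82%. The medians were 0.14 in complex I, 0.13 in complex II, 0.08 in complex III, 0.02 in complex V and -0.01 in complex IV. Cox6a2 (-2.08) and Cox8b (-1.77) had the largest differences and are described below. Without L44 and L47 the median over the 83 genes was 0.06, and 32 were lower.

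Ndufa4, counted here with complex IV as its protein is in human cells, had the smallest p. It had 13.29, 13.40, 13.57, 13.59 and 13.22 with E2+Pg in wild-type animals L57, L62, L44, L47 and L21, against 13.01, 12.86, 13.24 and 12.87 with E2 in L67, L50, L72 and L52. Only L72 and L21 crossed over (0.42, adjusted p = 0.0685 in limma; exact permutation p = 0.0317). Ndufa13 had the opposite sign. It had 15.19, 14.99, 15.05, 15.24 and 15.28 with E2+Pg, against 15.32, 15.34, 15.62 and 15.43 with E2, with no overlap (-0.28, adjusted p = 0.170 in limma; exact permutation p = 0.0159). It was the 1 gene of the 83 without overlap in the lower direction, against 2.93% of all genes, and 0 were without overlap in the higher one, against 5.82%. Ndufb5, Ndufa10, Ndufa5 and Ndufb8, accessory subunits of complex I, had differences of 0.31 to 0.36 at adjusted p-values of 0.256 to 0.263 in limma.

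**Figure D3:**
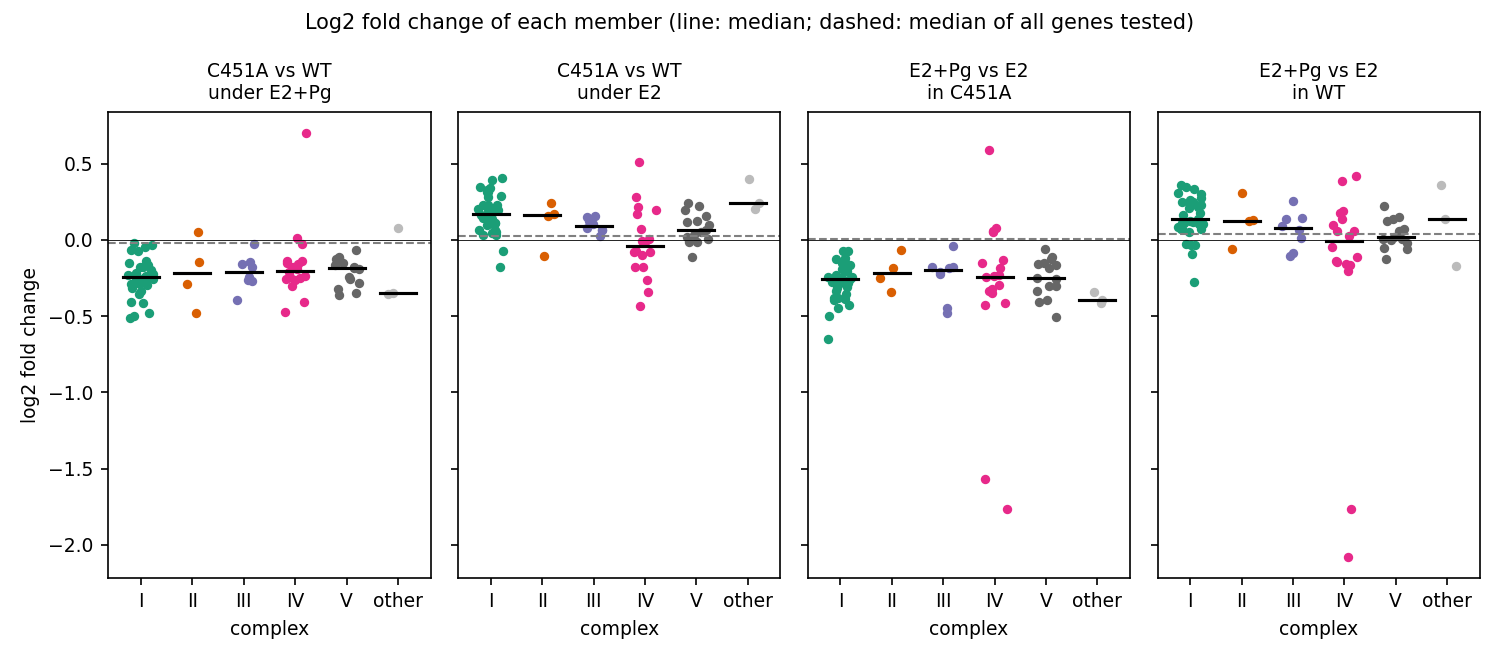
Log2 difference of each of the 83 genes (1 point per gene) by complex in the 4 comparisons, with lines at the median of the complex and at the median of all genes tested. Under E2+Pg and with progesterone in C451A-ERα LCs nearly all points lie below 0 (79 of 83 in each), and in the remaining comparisons most lie just above it (66 and 61 of 83).

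Whether the genotypes differed in the response to progesterone was tested by the interaction. The interaction, the E2+Pg minus E2 difference in C451A-ERα LCs less that in wild-type LCs, was negative for 78 of the 83 genes, with a median of -0.36, against -0.04 over all genes, of which 54.6% were negative. Limma called 0 genes of the array (0%), members included. At an unadjusted p under 0.05, 32 of the 83 were negative, against 5.63% of all genes, and 0 positive, against 3.8%. The smallest adjusted p was 0.474 (limma). All 35 genes of complex I were negative, with a median of -0.45 and 20 at an unadjusted p under 0.05, and the medians were -0.35 in complex V, -0.31 in complex III, -0.25 in complex II and -0.14 in complex IV. Among the genes of smallest p were Ndufb7 and Ndufa1 (each -0.53), Ndufs3 (-0.50) and Ndufs4 (-0.45), an accessory subunit, in complex I, Sdhd (-0.65) in complex II and Atp5c1 (-0.48) in complex V. Sdhd had 11.68, 12.33, 11.74, 11.80 and 11.47 with E2+Pg, against 12.42, 11.93, 12.59, 11.82 and 11.98 with E2, in C451A-ERα mice. In wild-type mice it had 12.03, 12.02, 12.52, 12.45 and 12.41 with E2+Pg, against 11.91, 12.01, 12.04 and 11.95 with E2, with L57 and L62 just below L72.

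The brightest probe was read for the 29 genes with more than 1. Over the 121 probes, 104 were lower in C451A-ERα LCs under E2+Pg and 105 lower with E2+Pg in C451A-ERα LCs. Of the 38 probes that were not the brightest of their gene, 25 and 26 were lower in these comparisons.

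Where a subunit of complex IV has a general form and a restricted one, the general form was bright and steady: Cox6a1 at 16.48, Cox8a at 15.59, Cox4i1 at 15.29, Cox7a2 at 14.25, Ndufa4 at 13.23, Cox7b at 13.14 and Cox6b1 at 11.78, with an SD over the 19 arrays of 0.16 to 0.20. The restricted forms were dimmer: Cox7a1 at 9.84, Cox6b2, a testis form, at 7.76, Cox6a2 at 7.41, Cox4i2 at 7.27, Cox8b at 6.85, Cox7b2 at 5.96 and Ndufa4l2 at 5.61. Cox7a2l, an assembly factor of supercomplexes, was at 14.53. The genes of the ATP synthase c subunit, Atp5g1, Atp5g2 and Atp5g3, which code for the same mature protein, were at 14.24, 15.29 and 14.85, and with E2+Pg in C451A-ERα LCs they differed by -0.06, -0.39 and -0.18.

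Cox6a2 and Cox8b, the heart and skeletal muscle forms, did not follow the other subunits. Cox6a2 had 8.28, 6.85, 5.19, 6.56 and 5.56 in C451A-ERα mice with E2+Pg (L56, L18, L61, L53, L63) and 6.21, 5.52, 4.77, 5.03 and 11.07 in wild-type mice with E2+Pg (L57, L62, L44, L47, L21). It had 8.94, 7.40, 9.31, 10.02 and 5.60 in C451A-ERα mice with E2 (L4, L58, L27, L76, L51) and 8.36, 8.95, 8.72 and 8.36 in wild-type mice with E2 (L67, L50, L72, L52). L21 was the highest of all and the other wild-type mice with E2+Pg were among the lowest. With E2+Pg the difference against E2 was -1.76 in C451A-ERα LCs and -2.08 in wild-type LCs (adjusted p = 0.367 and 0.347, limma). Cox8b differed by -1.57 and -1.77 (adjusted p = 0.356 and 0.356, limma). These differences rest in part on signals at background. The Cox6a2 probe was not well above background in L61, L44 and L47, nor that of Cox8b in L61, L63, L62, L44 and L47, and these are all mice with E2+Pg. Without L44 and L47 the differences in wild-type LCs were -0.996 for Cox6a2 and -0.86 for Cox8b. The spread between mice was far above that of the other genes.

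The 9 mice with the highest Cox6a2 (L21, L76, L27, L50, L4, L72, L52, L67 and L56) were also the 9 with the highest Cox8b and the 9 with the highest Acta1, Ckm and Mylpf, which mark skeletal muscle. Acta1 was 13.87 in L21 and 6.14 in L44. Of 7 skeletal muscle markers, 7 were lower with E2+Pg than with E2 in each genotype, at medians of -1.90 in C451A-ERα LCs and -2.24 in wild-type LCs, with 0 called by limma and 1 and 5 at an unadjusted p under 0.05. Without L44 and L47 the wild-type median was -1.38 with 0 at that p, and without L4, L27 and L18 the C451A-ERα median was -1.34 with 0 at that p. Their summed log2 level was 8.66 to 12.47 in C451A-ERα with E2+Pg, 8.59 to 15.06 in wild-type with E2+Pg, 9.33 to 13.96 in C451A-ERα with E2 and 12.53 to 13.44 in wild-type with E2. Their part in the result was not tested. Cox8b is also a marker of brown fat. Among the other markers of that tissue, Ucp1, the uncoupling protein of brown fat, was at 4.62 to 6.24 in the 19 mice. Elovl3 was at 4.46 to 7.04, and Cidea was brighter, at 7.67 to 12.62. With E2+Pg against E2, Ucp1, at these dim signals, differed by 0.66 in C451A-ERα LCs and 0.57 in wild-type LCs (adjusted p = 0.0819 and 0.1996, limma). Elovl3 differed by -0.26 and -0.59, and Cidea by 1.17 and -0.07. The part of brown fat in the Cox8b signal was not tested. Cox7a1 shared 5 of its 9 highest mice with each of the muscle markers Acta1, Ckm and Mylpf.

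**Figure D4:**
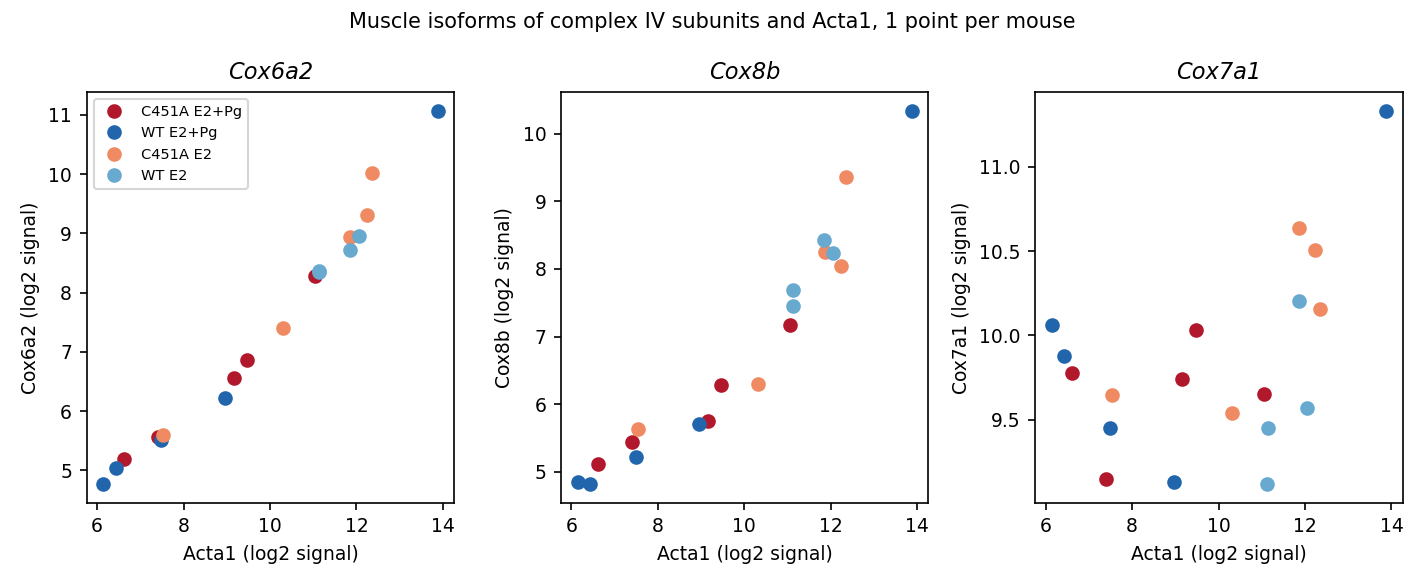
Log2 signal of Cox6a2, Cox8b and Cox7a1 (vertical axes) against that of the muscle actin Acta1 (horizontal axis), 1 point per mouse, coloured by group. Cox6a2 and Cox8b climb with Acta1 up to L21 at the far right (Acta1 13.87, Cox6a2 11.07), and Cox7a1 does not follow it over the lower range.

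The subunits encoded in the mitochondria were read by 11 transcripts on the array (ND1, ND2, ND3, ND4, ND4L, ND5, ND6, CYTB, COX1, COX2 and ATP8), and their differences turned on L44 and L47. With all mice, in C451A-ERα LCs 11 of 11 were higher than in wild-type LCs under E2+Pg, at a median of 0.90, with 4 at an unadjusted p under 0.05 and 0 called by limma. With E2+Pg against E2 the median was 0.07 in C451A-ERα LCs and -0.97 in wild-type LCs, where 11 of 11 were lower, with 5 at an unadjusted p under 0.05 and 0 called. Under E2 the genotype difference had a median of -0.14. Without L44 and L47, of the wild-type group with E2+Pg, the median was 0.03 between genotypes under E2+Pg, with 6 of 11 higher, and -0.06 for progesterone in wild-type LCs, with 7 of 11 lower, and 0 were at an unadjusted p under 0.05 in either. Without L4, L27 and L18 the median was 0.28 between genotypes under E2 and -0.26 for progesterone in C451A-ERα LCs, each opposite in sign to that with all mice, with 0 at an unadjusted p under 0.05. L44 and L47 had the lowest signals. COX1, the catalytic subunit of complex IV, was 13.15 in L44 and 12.30 in L47, against 14.71 to 16.08 in the other 17 mice. Its difference between genotypes under E2+Pg was 1.15 with all mice and 0.05 without L44 and L47. Over the 11 transcripts the mean deviation was -1.79 in L44 and -2.02 in L47. The next lowest were L27 (-0.56), L4 (-0.47) and L18 (-0.20), and the others lay between 0.06 and 0.66. In the nuclear genes L44 and L47 were at 0.04 and 0.11, within the range of their group.

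**Figure D5:**
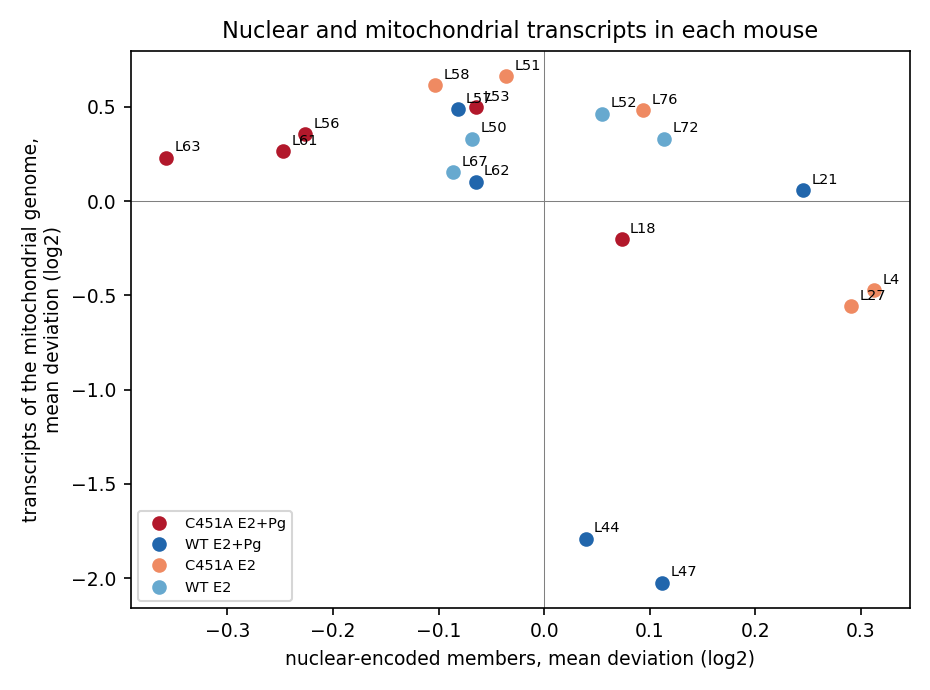
Mean deviation per mouse of the 11 mitochondrially encoded transcripts (vertical axis, log2) against that of the 83 nuclear genes (horizontal axis, log2), coloured by group. L44 and L47 lie far below the rest (-1.79 and -2.02) at ordinary values of the nuclear genes, and L4, L27 and L18 are next.

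Other mitochondrial genes were counted from lists. Of 78 genes of the mitochondrial ribosome, which translates the mitochondrial transcripts, 72 were lower in C451A-ERα LCs under E2+Pg (median -0.23) and 65 higher under E2 (0.16). With E2+Pg against E2, 56 were lower in C451A-ERα LCs (-0.18) and 74 higher in wild-type LCs (0.23). Limma called 0 in each. At an unadjusted p under 0.05 in that direction there were 13, 9, 5 and 12, against 10.5, 7.02, 9.85 and 9.56% of all genes. Of 47 assembly factors of the complexes, 38 were lower in C451A-ERα LCs under E2+Pg (-0.16) and 36 lower with E2+Pg in C451A-ERα LCs (-0.15). In the first, limma called 0 and 4 were at an unadjusted p under 0.05, against 10.5% lower and 7.9% higher of all genes. In the second 1 was called in each direction, Ndufaf4 (higher) and Sdhaf4 (lower), against 2.48% of all genes. Of 16 genes of the tricarboxylic acid cycle, 13 were lower in each of these comparisons (-0.13 and -0.12), and Fh1, fumarase, was called lower with E2+Pg in C451A-ERα LCs. Of 8 further subunits and carriers, among them those of cytochrome c, 6 were lower in each (-0.19 and -0.17), with 0 called and 1 at an unadjusted p under 0.05 in each. These lists also moved with the mice that stood apart. Without L4, L27 and L18 the median of the mitochondrial ribosome was -0.33 under E2+Pg, with 11 called, -0.09 under E2, opposite in sign to that with all mice, and -0.04 with E2+Pg in C451A-ERα LCs. That of the assembly factors was -0.23 under E2+Pg, with 4 called, and -0.03 with E2+Pg in C451A-ERα LCs, with 0 called, as for Fh1. All these calls were lower, and 14.5% of all genes were called under E2+Pg without these mice. Without L44 and L47 the medians between genotypes under E2+Pg were -0.15 for the mitochondrial ribosome, -0.07 for the assembly factors and -0.08 for the tricarboxylic acid cycle.

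Of 24 regulators of mitochondrial biogenesis, 15 were lower in C451A-ERα LCs under E2+Pg (median -0.11), 12 lower with E2+Pg in C451A-ERα LCs (0.00) and 18 higher with E2+Pg in wild-type LCs (0.18), with 0 called by limma. In the first 4 were higher and 1 lower at an unadjusted p under 0.05, in the second 5 higher and 4 lower, and in the third 2 higher and 1 lower. Over all genes the shares were 7.9% higher and 10.5% lower in the first, 8.6% and 9.85% in the second, and 9.56% and 6.82% in the third. Without L4, L27 and L18 the first median was -0.20, with 2 called in each direction, and without L44 and L47 it was -0.03. The 87 genes of the cytosolic ribosome had medians between -0.02 and 0.04 in the 4 comparisons. The 16 glycolytic genes had medians of -0.18 in C451A-ERα LCs under E2+Pg, -0.14 under E2, -0.24 with E2+Pg in C451A-ERα LCs and -0.16 in wild-type LCs. Hk2, a hexokinase, was called lower in the third, against 2.48% of all genes called. In the last Hk2 and Aldoa were called lower, against 1.35% of all genes called.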

How the data were processed

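RNA of sorted LCs from 19 mice was hybridised to single-colour Agilent mouse arrays. The deposited scanner files hold the signal intensity of each spot, as Agilent Feature Extraction 10.10.1.1 wrote it for the authors, and a flag for each spot that exceeded background well. In the deposited value table the authors gave log2 signals after filtering, correction for washing bath and labelling series, and quantile normalization. It served as an alternative.

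Groups came from the sample labels. Ovariectomy was at 24 days by the labels and at 26 days by the methods. Median signals were log2 transformed and quantile normalized (limma 3.58.1, R 4.3.3), without 1370 spots flagged as outliers, of which 0 touched a member. Only probes that exceeded background well on 4 or more arrays entered, and each gene was read from its brightest such probe. Means of the 4 groups were fitted to all arrays (15 residual degrees of freedom), p-values were adjusted by Benjamini-Hochberg over all genes, and tests were two-sided. Exact permutation tests used scipy 1.17.1 in Python 3.11.15 and were not adjusted over genes. Probe coordinates are those of the files (mm9). The fit was tested on simulated data.

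The members and lists were chosen with earlier results of these data known. Genes named are, per comparison, the called members or those of smallest p up to 6, the core subunits, the isoform sets and the genes of largest and smallest SD in each complex. Uqcr10, Atp5s, Atp5sl and Atp5c1-ps, the genes without overlap, the called genes of lists, brown fat markers, and the highest and lowest gene by signal or difference were named after their values were seen. Alternatives changed the signal, background, scaling, filter, probe rule, slide, weights and mice. Values of 1 member are not reported here by name, though it stays in the counts.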

Additional observations from a re-analysis of the deposited data

Results flagged for a closer look

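In 332 pairs of a gene and a group, 16 had 1 mouse set apart from the rest of its group by Dixon's criterion, which flags about 1 group in 20 by chance. Those of the 23 genes with the smallest p in the comparisons, which do not include Cox6a2 and Cox8b, were as follows. Cox7c was high in L47 among wild-type mice with E2+Pg (13.13) and low in L67 among wild-type mice with E2 (12.86). Cox8a was low in L58 among C451A-ERα mice with E2 (15.56). Ndufa6 was low in L61 among C451A-ERα mice with E2+Pg (13.83). In L72, among wild-type mice with E2, Ndufb10 (13.74) and Ndufb5 (12.92) were high.

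The mean deviation of the 18 genes of complex IV was high in L21 among wild-type mice with E2+Pg (0.55), the mouse with the highest Cox6a2 and Cox8b.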

How the results depend on the processing

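Medians over the 83 genes kept their sign in each comparison under the alternatives planned and with each mouse left out, but under E2 the genotype median was -0.01 without L4, L27 and L18. With 1 mouse left out they ran between 0.07 and 0.17 (genotype under E2), -0.30 and -0.17 (genotype under E2+Pg), -0.31 and -0.20 (progesterone in C451A-ERα), 0.07 and 0.14 (progesterone in wild-type) and -0.40 and -0.29 (interaction). Counts called, 0 as reported, were 0 to 2 with 1 mouse left out: 2 under E2+Pg without L18, 1 and 2 for progesterone in C451A-ERα without L58 and L18, and 2 for progesterone in wild-type without L21. They were 1 for progesterone in C451A-ERα with probes above background on all arrays, and 2 under E2+Pg without L4, L27 and L18. At an adjusted p under 0.05 at any fold (limma), the 6 genes for progesterone in C451A-ERα became 0 with the scanner's processed signal, with scaling to the 75th percentile or with only the groups compared, 2 without a filter, 1 with the slide as a block, 0 to 12 with 1 mouse left out, and 0 without L4, L27 and L18 or without L44 and L47. Array weights gave 9 of 83 (10.8%, genotype under E2), 16 (19.3%, genotype under E2+Pg) and 7 (8.43%, progesterone in wild-type), in place of 0, against 23, 18.2 and 15.6% of all genes, normexp gave 1 in the last, and with 1 mouse left out these were 0, 0 to 5 (5 without L18, 2 without L21) and 0 to 2 (2 without L21, 1 without L72). Without L4, L27 and L18 they were 0, 32 (38.6%, against 22.6% of all genes) and 1. Ndufa13 with progesterone in C451A-ERα turned to 0.0103 with the mean of its probes. Of 924 refits of 30 named differences, 923 kept the direction. Of 186 refits of the 6 genes past the adjusted p at any fold, 74 stayed past it, from 9 of 31 for Atp5e to 19 of 31 for Ndufa13. Leaving out groups of mice was chosen after the data were seen. The causes were not tested. The labels give no replicate numbers by which mice could be paired. Mice of 1 slide were compared with each other, and the slide was fitted as a block. Dim probes such as Cox6a2, Cox8b, Cox7b2 and Ndufa4l2 limit precision.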

Other observations

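Markers of other cell types were measured beside the subunit genes. With E2+Pg against E2 in C451A-ERα LCs, limma called 0 markers of basal cells (8 measured, median log2 difference 0.17), fibroblasts (6, 0.08), endothelium (4, 0.05), immune cells (6, -0.12), adipocytes (3, 0.11) and epidermis (4, 0.01), with 1 basal marker lower at an unadjusted p under 0.05 and 0 in the other lists. Between C451A-ERα and wild-type LCs under E2+Pg the medians were 0.23, -0.09, -0.21, -0.36, 0.00 and 0.30 in the same order of lists, with 0 called. At an unadjusted p under 0.05, 1 basal marker was higher, 1 immune marker higher and 1 lower, and 1 epidermal marker lower. For 9 mitochondrial carriers and uncoupling proteins the medians were 0.09 between genotypes under E2+Pg and 0.00 for progesterone in C451A-ERα LCs, with 0 called by limma and, at an unadjusted p under 0.05, 1 lower in the first and 1 higher and 2 lower in the second.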
